A study of Homo sapiens with 12 samples.

Results

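The genes described here are 31 enzymes and regulators of cholesterol and fatty acid synthesis, taken by symbol from a count table of 58037 gene identifiers. They fall into the SREBP system (4 genes), the sterol transport protein STARD4, the enzymes that lead from acetyl-CoA to farnesyl pyrophosphate (7), the enzymes from squalene to cholesterol (11) and the enzymes of fatty acid synthesis and desaturation (8). All 31 were found in the table and all 31 had enough counts to be tested in both cell lines. They were chosen by pathway, not by a threshold on their values, but with earlier results of these data known.

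RNA was sequenced from BT-549 and SUM149, established lines of triple-negative breast cancer, which lacks estrogen receptor, progesterone receptor and HER2. Cells of each line carried MUC1shRNA, a short hairpin RNA directed against MUC1-C, or the control hairpin CshRNA, with 3 libraries in each of the 4 groups. BT-549 cells of both arms were grown in RPMI1640 with 10% heat-inactivated serum and insulin, and SUM149 cells of both arms in Ham's F-12 with 5% serum, insulin and hydrocortisone. Medium and line therefore cannot be told apart in any difference between the lines. The labels call the BT-549 controls both CshRNA and vector, and describe cells cultured in triplicate, without saying whether the hairpin was introduced separately for each. The p-values thus measure the spread between these libraries.

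Cells make cholesterol from acetyl-CoA through the mevalonate pathway, and fatty acids from the same acetyl-CoA through acetyl-CoA carboxylase and fatty acid synthase. Most enzymes of both pathways are transcribed under sterol regulatory element binding proteins (SREBPs), which are held in the membrane of the endoplasmic reticulum. When membrane cholesterol is low, SCAP escorts them to the Golgi, where proteases release the part that enters the nucleus, and INSIG1 holds SCAP back when sterols are plentiful. SREBP-2, the product of SREBF2, mainly drives sterol genes, and SREBP-1, the product of SREBF1, mainly drives fatty acid genes and also responds to insulin and to liver X receptors.

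MUC1, the target, had 3.32, 5.55 and 3.94 CPM in BT-549 MUC1shRNA libraries, against 47.8, 49.5 and 50.3 CPM in CshRNA libraries. The SUM149 values were 1.16, 0.366 and 0.524 CPM with MUC1shRNA, against 17.7, 18.01 and 13.0 CPM with CshRNA. CPM, the unit of all levels here, is the count of a gene per mega-count of the library, with library sizes adjusted by TMM scaling. Libraries held 7931614 to 24140623 counts, and the SUM149 control arm was 2.44 times as deep as its MUC1shRNA arm. The 8 breast line markers describe the cultures. EPCAM, an epithelial adhesion molecule, averaged 485 CPM with MUC1shRNA and 434 CPM with CshRNA in SUM149, and 0.0339 CPM with MUC1shRNA and 0.266 CPM with CshRNA in BT-549. VIM, the mesenchymal intermediate filament, averaged 1436 CPM with MUC1shRNA and 1402 CPM with CshRNA in BT-549, and 35.2 CPM with MUC1shRNA and 33.9 CPM with CshRNA in SUM149. CDH1, E-cadherin, averaged 230.2 CPM with MUC1shRNA and 216 CPM with CshRNA in SUM149, and 1.26 CPM with MUC1shRNA and 0.824 CPM with CshRNA in BT-549. KRT8, a luminal keratin, rose in BT-549 to 260.0 CPM with MUC1shRNA, against 41.1 CPM with CshRNA (edgeR adjusted p = 1.28e-07), and KRT18, its partner keratin, to 604 CPM with MUC1shRNA, against 268 CPM with CshRNA (edgeR adjusted p = 5.39e-05). In SUM149 KRT8 averaged 641 CPM with MUC1shRNA and 606 CPM with CshRNA, and KRT18 465 CPM with MUC1shRNA and 424 CPM with CshRNA, and neither passed the test. The part of these markers in the lipid gene results was not tested. The progesterone receptor gene PGR had at most 0.257 CPM in 11 of the 12 libraries and 1.66 CPM in SUM149 CshRNA 3. ESR1, the estrogen receptor gene, averaged 5.32 CPM with MUC1shRNA and 2.50 CPM with CshRNA in SUM149, and 0.107 CPM with MUC1shRNA and 0.0484 CPM with CshRNA in BT-549. ERBB2, the gene of HER2, averaged 39.9 CPM with MUC1shRNA and 63.3 CPM with CshRNA in SUM149, and 42.9 CPM with MUC1shRNA and 44.7 CPM with CshRNA in BT-549.

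Of the 31 lipid genes, 10 rose and 2 fell in BT-549, and 10 rose and 13 fell in SUM149. A gene was called at an adjusted p below 0.05 in edgeR's quasi-likelihood test over all genes, with Benjamini-Hochberg adjustment. Over all tested genes, 16.8% rose and 16.5% fell in BT-549, and 27.6% rose and 28.9% fell in SUM149. The members thus changed in 38.7% of cases in BT-549, against 33.3% of all genes, and in 74.2% in SUM149, against 56.5% of all genes. The BT-549 share lies near its background. Changes of at least 2-fold past the test were rises for 0 of the 31 genes in both lines (2.75% of all genes in BT-549 and 4.39% in SUM149) and falls for 0 in BT-549 (1.98% of all genes). In SUM149 such falls were those of ACSS2, TM7SF2 and SREBF1, which is 3 of 31 against 8.52% of all genes. The arms did not overlap for 15 members in BT-549 (47.1% of all genes) and 23 in SUM149 (62.5%), of which 9 were higher with MUC1shRNA (30.3%) and 14 lower (32.2%). The median log2 fold change of the 31 was 0.09 in BT-549 and -0.08 in SUM149, beside -0.01 and -0.03 over all tested genes. Counts in BT-549 moved with single libraries, for the members and for all genes. Without MUC1shRNA 1, 6 members rose and 0 fell, and 1379 and 1337 of all genes did, against 2216 and 2182 with every library. Without MUC1shRNA 3 these counts were 5 and 1 for the members and 1537 and 1474 for all genes, and without CshRNA 1 they were 6 and 2 and 1673 and 1623. Without MUC1shRNA 2 they were 10 and 1 for the members and 2286 and 2184 for all genes. Without CshRNA 3 and MUC1shRNA 2 together, 15 members rose and 3 fell, and 2731 and 2594 of all genes did. These libraries were the least like the others of their arms. Chi-square per degree of freedom was 14.46 and 13.67 for CshRNA 3 against CshRNA 1 and 2, and 4.431 between those. It was 8.534 and 8.335 for MUC1shRNA 2 against MUC1shRNA 1 and 3, and 1.846 between those. Leaving such libraries out narrows the spread, so the larger counts are not independent support for the calls.

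In SUM149 the medians of the fatty acid and the mevalonate enzymes lay on opposite sides of the median of all genes. The median log2 fold change of the 8 fatty acid enzymes was -0.58 in SUM149, where 5 fell and 2 rose, while that of the 7 mevalonate enzymes was 0.29, where 3 rose and 2 fell. The 11 sterol enzymes were split there, with 4 rising, 3 falling and a median of -0.06. Over all tested genes 27.6% rose and 28.9% fell in SUM149, so a split of this kind is not particular to the sterol enzymes. In BT-549 the medians were 0.10 for fatty acid enzymes (3 rose, 1 fell), 0.20 for mevalonate enzymes (3 rose, 0 fell) and -0.03 for sterol enzymes (1 rose, 1 fell), where 16.8% of all tested genes rose and 16.5% fell. The sign of the sterol enzyme median was positive in SUM149 with a stricter filter (0.03), under which CYP51A1 was not tested. With 1 library left out, the SUM149 mevalonate median ranged from 0.15 (without MUC1shRNA 2) to 0.38 (without MUC1shRNA 3), and the sterol median from -0.14 (without CshRNA 2) to -0.0055 (without CshRNA 3). The fatty acid median stayed between -0.60 and -0.51. Differences between classes were not tested, because the genes of a class are not replicates.

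**Figure D1:**
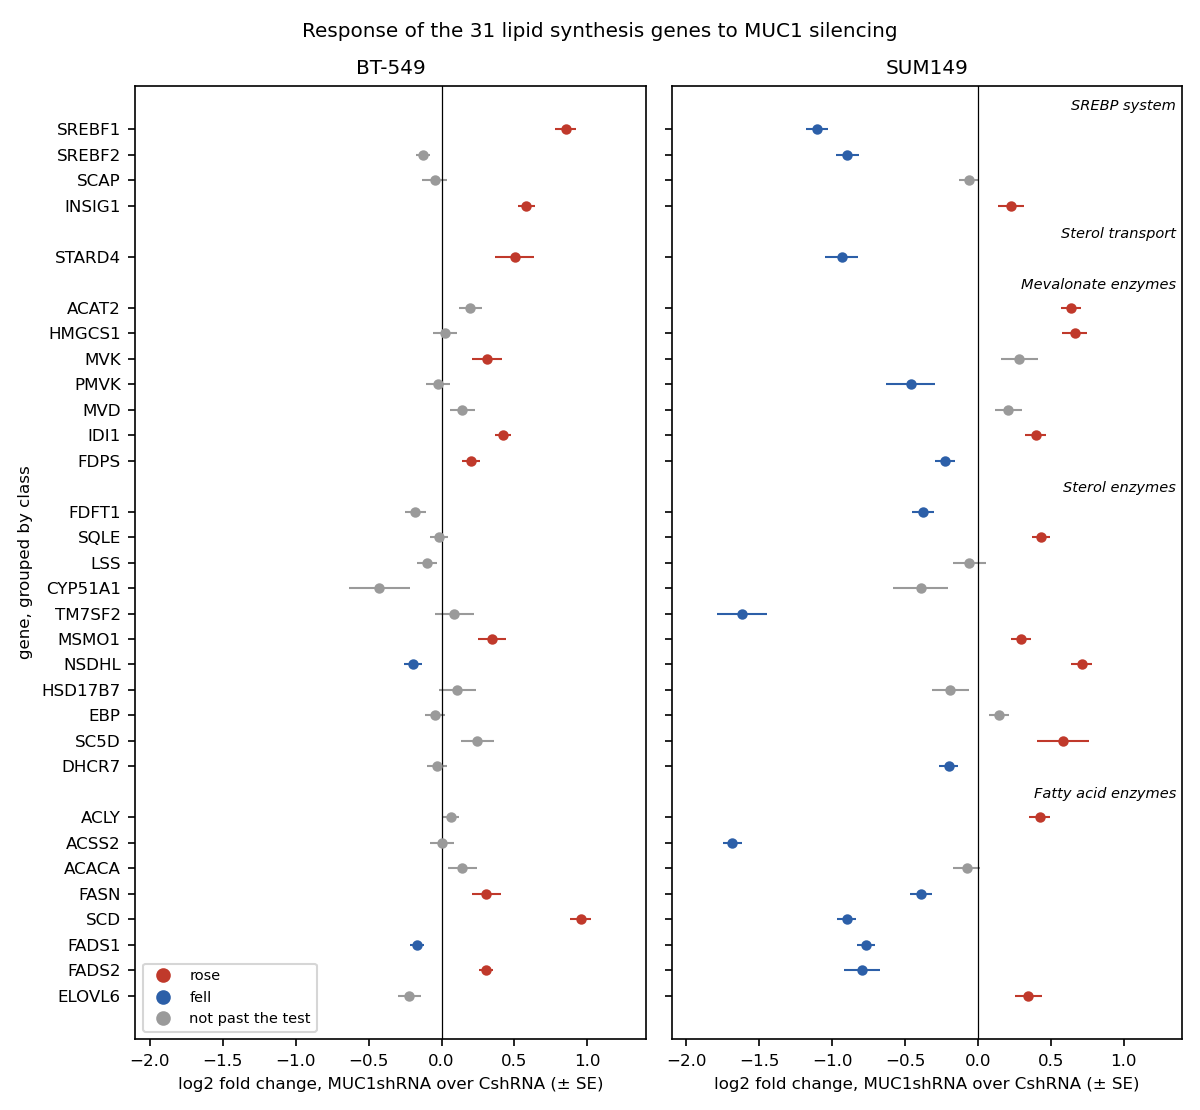
Log2 fold change of MUC1shRNA over CshRNA (horizontal axis, with SE) for each of the 31 genes (vertical axis, grouped by class) with BT-549 on the left and SUM149 on the right. Rises are drawn in red, falls in blue and genes not past the test in grey. SREBF1 and SCD lie at 0.85 and 0.95 in BT-549 and at -1.11 and -0.90 in SUM149.

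SREBF1 encodes SREBP-1 (ENSG00000072310.16) from the minus strand of chromosome 17, bases 17810399 to 17837002 in GRCh38. SREBF1 in BT-549 had 141, 136 and 134 CPM with MUC1shRNA, against 84.5, 70.0 and 73.3 CPM with CshRNA. SUM149 libraries gave 70.6, 80.3 and 76.0 CPM with MUC1shRNA, against 161, 154 and 174 CPM with CshRNA. The arms did not overlap in either line, and SREBF1 stood above its controls in every BT-549 library and below them in every SUM149 library. The log2 fold change was 0.85 in BT-549 (SE 0.07, edgeR adjusted p = 3.44e-05) and -1.11 in SUM149 (SE 0.07, edgeR adjusted p = 5.46e-08). Silenced cells thus held 1.8035 times the control level in BT-549 and 0.465 times the control level in SUM149. SREBF1 shares 6.92% of its exon bases with RAI1 on the opposite strand, and how strand was treated in counting is unknown here.

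SREBF2, which encodes SREBP-2 (ENSG00000198911.11, chromosome 22, 41833079 to 41907308, plus strand), had 211, 212 and 207 CPM in silenced BT-549 cells, against 234, 221 and 232 CPM in control cells. Its level in SUM149 was 163, 186 and 152 CPM with MUC1shRNA, against 321, 305 and 306 CPM with CshRNA. SREBF2 fell in SUM149 by 0.90 on the log2 scale (SE 0.08, edgeR adjusted p = 5.19e-07), and in BT-549 its change of -0.12 (SE 0.05) did not pass the test (edgeR adjusted p = 0.0750). SREBF1 and SREBF2 therefore fell in the same SUM149 libraries, and the ratio of their CPM was 0.455 ± 0.0391 with MUC1shRNA and 0.525 ± 0.0377 with CshRNA there (SD, n = 3 each). In BT-549 the ratio was 0.652 ± 0.0143 with MUC1shRNA and 0.331 ± 0.0265 with CshRNA (SD, n = 3 each). The ratio is taken within a library and does not depend on the scaling between libraries.

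INSIG1, which retains SCAP in the endoplasmic reticulum and is itself an SREBP target (ENSG00000186480.12, chromosome 7, 155297776 to 155310235, plus strand), had 230.2, 229 and 251 CPM with MUC1shRNA and 164, 153 and 157 CPM with CshRNA in BT-549. It rose there by 0.58 on the log2 scale (SE 0.06, edgeR adjusted p = 8.36e-05), without overlap. In SUM149 it had 132, 114 and 125 CPM with MUC1shRNA and 96.2, 100.4 and 121 CPM with CshRNA, so the arms overlapped. Its rise of 0.23 in SUM149 (SE 0.09) passed narrowly (edgeR adjusted p = 0.0441). It did not pass without CshRNA 1 (adjusted p = 0.187), CshRNA 2 (0.144), MUC1shRNA 1 (0.170) or MUC1shRNA 3 (0.130), nor with upper-quartile scaling (0.133). SCAP, the escort protein, had 53.2, 58.3 and 52.5 CPM with MUC1shRNA and 59.8, 49.3 and 60.0 CPM with CshRNA in BT-549. The SUM149 values were 87.3, 99.8 and 89.4 CPM with MUC1shRNA and 97.3, 95.1 and 96.7 CPM with CshRNA. Its fold changes of -0.05 (SE 0.09) and -0.06 (SE 0.07) did not pass in BT-549 or SUM149 (edgeR adjusted p = 0.712 and 0.446).

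The upstream sequences of the regulators and of 1 enzyme from each pathway are printed here because these genes moved apart between the lines or between the pathways. Each is the 250 bases before a RefSeq transcription start (GRCh38.p14), read on the strand of the gene. Capitals mark the sterol regulatory element (the first run of capitals in the SREBF2 window), the CCAAT box bound by NF-Y and the E-box CACGTG, searched on both strands, so that ATTGG is a CCAAT box on the other strand. The windows are chr17:17836987-17837236 for SREBF1 (minus strand), chr22:41832855-41833104 for SREBF2 (plus), chr7:155297628-155297877 for INSIG1 (plus), chr10:100346983-100347232 for SCD (plus) and chr5:43313413-43313662 for HMGCS1 (minus).
SREBF1: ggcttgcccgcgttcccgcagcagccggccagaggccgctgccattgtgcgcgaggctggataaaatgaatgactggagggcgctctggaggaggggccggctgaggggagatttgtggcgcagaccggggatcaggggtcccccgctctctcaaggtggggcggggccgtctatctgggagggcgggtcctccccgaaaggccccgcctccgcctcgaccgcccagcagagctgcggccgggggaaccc
SREBF2: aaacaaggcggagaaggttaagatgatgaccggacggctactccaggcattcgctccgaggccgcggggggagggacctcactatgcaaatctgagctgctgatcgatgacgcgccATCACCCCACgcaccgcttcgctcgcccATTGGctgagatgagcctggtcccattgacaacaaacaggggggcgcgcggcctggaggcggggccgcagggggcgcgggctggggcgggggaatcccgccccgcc
INSIG1: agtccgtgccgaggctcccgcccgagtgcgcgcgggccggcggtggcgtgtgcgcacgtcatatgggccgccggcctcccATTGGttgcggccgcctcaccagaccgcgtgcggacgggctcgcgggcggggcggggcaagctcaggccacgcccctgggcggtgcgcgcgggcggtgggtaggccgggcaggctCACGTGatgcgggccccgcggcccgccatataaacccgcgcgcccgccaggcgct
SCD: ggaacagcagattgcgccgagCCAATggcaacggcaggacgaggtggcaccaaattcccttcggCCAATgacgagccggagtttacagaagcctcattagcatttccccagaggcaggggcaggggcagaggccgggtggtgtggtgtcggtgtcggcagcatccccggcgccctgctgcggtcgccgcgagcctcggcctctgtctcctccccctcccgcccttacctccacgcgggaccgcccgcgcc
HMGCS1: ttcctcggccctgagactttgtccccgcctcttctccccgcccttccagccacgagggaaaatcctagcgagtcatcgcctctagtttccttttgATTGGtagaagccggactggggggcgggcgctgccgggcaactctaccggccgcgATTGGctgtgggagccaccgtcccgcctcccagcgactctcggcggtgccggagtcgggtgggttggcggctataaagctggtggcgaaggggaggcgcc

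The SREBF2 window holds the full sterol regulatory element, which occurs in 12 of 35116 such windows over all genes (0.0342%). No other window of a member holds these 10 letters. With the looser pattern TCACNCNAC, which includes the full element, matches lay in the windows of SREBF2, ACSS2, FADS2, FDPS and HSD17B7, in 5 of the 37 member windows and 2.02% of all windows. CCAAT was found in 24 of the 37 member windows, which belong to 27 genes, and in 32.0% of all windows. CACGTG was found in 4 of the 37, of INSIG1, SC5D and SCAP, and in 6.34% of all. SREBF1 has none of these motifs in the window printed, SCD and HMGCS1 have a pair of CCAAT boxes each, and INSIG1 has 1 CCAAT box and 1 CACGTG. The SREBF1 window lies at the upstream end of the gene, and sequence further downstream is not printed. Counts per gene do not separate transcripts with different starts. SCD fell in SUM149 and HMGCS1 rose there, and the part of these motifs in the responses was not tested. Several genes have more than 1 window, and these can overlap. A match is a stretch of letters, and binding was not measured.

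STARD4, a carrier of cholesterol between membranes (ENSG00000164211.12, chromosome 5, 111496033 to 111512590, minus strand), had 58.1, 51.7 and 62.5 CPM with MUC1shRNA in BT-549, against 44.8, 46.0 and 31.2 CPM with CshRNA. SUM149 libraries gave 15.5, 13.8 and 16.5 CPM with MUC1shRNA, against 30.7, 31.7 and 25.3 CPM with CshRNA. The arms did not overlap in either line. STARD4 rose in BT-549 by 0.50 (SE 0.13, edgeR adjusted p = 0.0175) and fell in SUM149 by 0.93 (SE 0.11, edgeR adjusted p = 1.35e-05) on the log2 scale. The BT-549 call ended without MUC1shRNA 1 (adjusted p = 0.0572) or MUC1shRNA 3 (0.0676).

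Of the 7 mevalonate enzymes, 3 rose and 2 fell in SUM149 (27.6% and 28.9% of all genes), and 3 rose and 0 fell in BT-549 (16.8% and 16.5%). The BT-549 rises of MVK and FDPS each ended when 1 of several libraries was left out, with the values given beside each gene. HMGCS1, the cytosolic synthase of HMG-CoA, had 63.2, 58.4 and 63.1 CPM with MUC1shRNA in SUM149, against 38.7, 35.2 and 42.7 CPM with CshRNA. In BT-549 it had 155, 160.4 and 174 CPM with MUC1shRNA, against 153, 146 and 181 CPM with CshRNA. HMGCS1 rose in SUM149 by 0.66 (SE 0.08, edgeR adjusted p = 1.96e-05) with arms apart, and its BT-549 change of 0.03 (SE 0.08) did not pass (edgeR adjusted p = 0.830). ACAT2, which joins acetyl-CoA units, had 82.8, 86.7 and 90.7 CPM with MUC1shRNA and 52.9, 57.8 and 56.6 CPM with CshRNA in SUM149. ACAT2 rose there by 0.64 (SE 0.07, edgeR adjusted p = 4.74e-06). In BT-549 it had 119.8, 121 and 124 CPM with MUC1shRNA and 101, 95.5 and 121 CPM with CshRNA, a change of 0.20 (SE 0.08) that passed only without CshRNA 3 among the single libraries left out (adjusted p = 0.00268, against 0.0886 with all libraries). ACAT2 shares 52.3% of its exon bases with genes on the opposite strand, among them SOD2, so its counts are uncertain.

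IDI1, the isomerase of isopentenyl pyrophosphate, had 141, 145 and 156 CPM with MUC1shRNA and 111, 113 and 107 CPM with CshRNA in BT-549. Its level in SUM149 was 105, 94.97 and 104 CPM with MUC1shRNA and 71.5, 79.8 and 79.5 CPM with CshRNA. IDI1 rose in both lines, by 0.42 (SE 0.06, edgeR adjusted p = 5.28e-04) in BT-549 and 0.40 (SE 0.07, edgeR adjusted p = 3.91e-04) in SUM149, with arms apart in each. The difference between these responses was 0.04 (SE 0.09). FDPS, the synthase of farnesyl pyrophosphate, had 135, 127 and 142 CPM with MUC1shRNA and 111, 116 and 124 CPM with CshRNA in BT-549. In SUM149 it had 59.7, 55.6 and 62.7 CPM with MUC1shRNA and 68.6, 67.4 and 72.4 CPM with CshRNA. FDPS rose in BT-549 by 0.20 (SE 0.06, edgeR adjusted p = 0.0336) and fell in SUM149 by 0.23 (SE 0.07, edgeR adjusted p = 0.0158). The BT-549 call ended without MUC1shRNA 1 (adjusted p = 0.103), MUC1shRNA 3 (0.137), CshRNA 1 (0.121) or CshRNA 2 (0.0722), and the SUM149 call without MUC1shRNA 2 (0.0835). GENCODE names 8 pseudogenes after FDPS, which can share its reads. IDI1 and FDPS share 14.8% and 18.6% of their exon bases with antisense genes, and HMGCS1 shares 14.95%.

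The remaining mevalonate enzymes were MVK, PMVK and MVD. MVK, mevalonate kinase, rose in BT-549 by 0.31 (SE 0.10, edgeR adjusted p = 0.0447), a call that ended without any of MUC1shRNA 1 (adjusted p = 0.0955), MUC1shRNA 2 (0.0717), MUC1shRNA 3 (0.106), CshRNA 1 (0.147) or CshRNA 2 (0.120). Its SUM149 change of 0.29 (SE 0.13) missed the threshold (edgeR adjusted p = 0.0746) and passed without CshRNA 3 (0.0302) or MUC1shRNA 3 (0.0232). PMVK, phosphomevalonate kinase, fell in SUM149 by 0.46 (SE 0.17, edgeR adjusted p = 0.0334). It averaged 7.81 ± 1.48 CPM with MUC1shRNA and 10.8 ± 1.85 CPM with CshRNA (SD, n = 3 each), and the call ended without CshRNA 2 (0.0549), CshRNA 3 (0.0682), MUC1shRNA 1 (0.128) or MUC1shRNA 3 (0.138). In BT-549 PMVK was at -0.02 (SE 0.08). MVD, the decarboxylase of the pathway, was at 0.14 (SE 0.09) in BT-549 and 0.21 (SE 0.09) in SUM149. Neither change of MVD passed, at edgeR adjusted p = 0.243 and 0.0722. MVD passed without CshRNA 3 in BT-549 (0.0269) and without MUC1shRNA 3 in SUM149 (0.0244). Summed over the 7 genes, silenced SUM149 cells held 364 to 372 CPM and control cells 285 to 308 CPM, while in BT-549 the ranges were 667 to 710 CPM with MUC1shRNA and 568 to 655 CPM with CshRNA.

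Among sterol enzymes the extremes were NSDHL and TM7SF2 in SUM149. NSDHL, a dehydrogenase that removes methyl groups from sterols, had 77.1, 74.1 and 72.3 CPM with MUC1shRNA in SUM149, against 42.4, 46.8 and 47.1 CPM with CshRNA. It had 105, 109 and 116 CPM with MUC1shRNA in BT-549, against 119.6, 125 and 134 CPM with CshRNA. NSDHL rose in SUM149 by 0.71 (SE 0.07, edgeR adjusted p = 2.51e-06) and fell in BT-549 by 0.19 (SE 0.06, edgeR adjusted p = 0.0380), with arms apart in both lines. The BT-549 call ended without MUC1shRNA 1 (adjusted p = 0.163), MUC1shRNA 2 (0.0827), CshRNA 2 (0.0648) or CshRNA 3 (0.0926), and with DESeq2 (0.0572). TM7SF2, a sterol reductase, had 3.34, 3.66 and 3.77 CPM with MUC1shRNA in SUM149, against 9.92, 10.0 and 13.3 CPM with CshRNA. Its values in BT-549 overlapped, at 8.91, 7.56 and 6.83 CPM with MUC1shRNA and 8.097, 7.04 and 6.87 CPM with CshRNA. TM7SF2 fell in SUM149 by 1.62 (SE 0.17, edgeR adjusted p = 4.25e-06), the largest fall among the 18 mevalonate and sterol enzymes, and its BT-549 change of 0.09 (SE 0.13) did not pass (edgeR adjusted p = 0.641).

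SQLE, squalene epoxidase, had 174, 175 and 179 CPM with MUC1shRNA in SUM149, against 129, 132 and 129 CPM with CshRNA. In BT-549 it had 426, 413 and 481 CPM with MUC1shRNA, against 433, 454 and 449 CPM with CshRNA. SQLE rose in SUM149 by 0.43 (SE 0.06, edgeR adjusted p = 4.02e-05), and its BT-549 values overlapped (-0.02, SE 0.06, edgeR adjusted p = 0.854). FDFT1, squalene synthase, moved the other way in SUM149, falling by 0.38 (SE 0.08, edgeR adjusted p = 0.00102) to 164 ± 5.07 CPM, against 213 ± 22.2 CPM with CshRNA (SD, n = 3 each). Its BT-549 change of -0.18 (SE 0.07) did not pass (edgeR adjusted p = 0.0753). MSMO1, a sterol methyl oxidase, rose in both lines, by 0.35 (SE 0.09, edgeR adjusted p = 0.0190) in BT-549 and 0.30 (SE 0.07, edgeR adjusted p = 0.00193) in SUM149. Its BT-549 call ended without MUC1shRNA 3 (adjusted p = 0.0747) or CshRNA 1 (0.0552).

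SC5D, a sterol desaturase, rose in SUM149 by 0.59 (SE 0.18, edgeR adjusted p = 0.0134) with overlapping arms, and the call ended without CshRNA 1 (adjusted p = 0.0570), MUC1shRNA 1 (0.0624) or MUC1shRNA 3 (0.0700). DHCR7, which makes cholesterol in the last step of its branch, fell there by 0.20 (SE 0.07, edgeR adjusted p = 0.0176), a call lost without MUC1shRNA 3 (0.128). In BT-549 neither passed, at 0.25 (SE 0.11) for SC5D and -0.03 (SE 0.07) for DHCR7, and SC5D passed without CshRNA 2 (0.0253). The remaining 4 sterol enzymes did not pass in either line. LSS, the cyclase that makes lanosterol, was at -0.10 (SE 0.07) in BT-549 and -0.06 (SE 0.11) in SUM149. EBP, a sterol isomerase, was at -0.05 (SE 0.07) and 0.15 (SE 0.07), and passed in SUM149 without MUC1shRNA 1 (0.0304). HSD17B7, a reductase of the pathway, was at 0.11 (SE 0.13) in BT-549 and -0.19 (SE 0.13) in SUM149. CYP51A1, the lanosterol demethylase, was at -0.43 (SE 0.21) and -0.39 (SE 0.19), and passed in BT-549 without CshRNA 2 (0.0259). Another gene on its strand covers 79.4% of the exon bases of CYP51A1, which averaged between 3.38 and 4.79 CPM in the 4 groups, so its counts are uncertain.

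Fold changes of the 8 fatty acid enzymes ran from -0.22 to 0.95 in BT-549 and from -1.69 to 0.42 in SUM149. SCD, the desaturase that makes oleate from stearate (ENSG00000099194.5, chromosome 10, 100347124 to 100364834, plus strand), had 2423, 2049 and 2498 CPM with MUC1shRNA in BT-549, against 1229.6, 1204 and 1164 CPM with CshRNA. The SUM149 values were 1563, 1537 and 1462 CPM with MUC1shRNA, against 3007.5, 2878 and 2631 CPM with CshRNA. The arms were apart in both lines and in opposite order. SCD rose in BT-549 by 0.95 (SE 0.07, edgeR adjusted p = 1.93e-05), the largest rise of the 31 genes there, and fell in SUM149 by 0.90 (SE 0.06, edgeR adjusted p = 9.10e-08). FASN, fatty acid synthase, had 289, 268 and 279.6 CPM with MUC1shRNA in BT-549, against 241, 184 and 250.3 CPM with CshRNA. SUM149 libraries gave 1127, 1307 and 1119 CPM with MUC1shRNA, against 1679, 1471 and 1498 CPM with CshRNA. FASN rose in BT-549 by 0.31 (SE 0.10, edgeR adjusted p = 0.0406) and fell in SUM149 by 0.39 (SE 0.08, edgeR adjusted p = 6.68e-04). The BT-549 call ended without MUC1shRNA 1 (adjusted p = 0.126), MUC1shRNA 3 (0.0994) or CshRNA 1 (0.0603).

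ACSS2, which makes acetyl-CoA from acetate (ENSG00000131069.19, chromosome 20, 34872146 to 34927962, plus strand), had 80.4, 86.6 and 77.2 CPM with MUC1shRNA in SUM149, against 261, 259.7 and 264 CPM with CshRNA. In BT-549 it had 29.02, 26.1 and 28.99 CPM with MUC1shRNA, against 26.8, 26.8 and 30.2 CPM with CshRNA. ACSS2 fell in SUM149 by 1.69 on the log2 scale (SE 0.07, edgeR adjusted p = 5.11e-10), the largest fall of the 31 genes, and its BT-549 arms overlapped at a change of 0.00 (SE 0.08, edgeR adjusted p = 0.984). ACLY, which makes acetyl-CoA from citrate, moved the other way in SUM149. It averaged 331 ± 6.40 CPM with MUC1shRNA and 247 ± 22.4 CPM with CshRNA (SD, n = 3 each), a rise of 0.42 (SE 0.07, edgeR adjusted p = 2.20e-04), and its BT-549 change of 0.06 (SE 0.06) did not pass. ACACA, acetyl-CoA carboxylase, was not past the test in either line (0.14, SE 0.10, and -0.08, SE 0.09), and passed in BT-549 without MUC1shRNA 2 (adjusted p = 0.0320).

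FADS1 and FADS2, the delta-5 and delta-6 desaturases of polyunsaturated fatty acids, lie in opposite orientation on chromosome 11. The annotated interval of FADS1 (61799625 to 61829318) lies inside that of FADS2 (61792980 to 61867354), and the genes share 4.79% and 4.44% of their exon bases. How strand was treated in counting is unknown, so counts from the shared bases are uncertain. FADS2 had 488, 496 and 509 CPM with MUC1shRNA in BT-549, against 403, 396 and 409 CPM with CshRNA. Its level in SUM149 was 151, 159.7 and 144 CPM with MUC1shRNA, against 232, 224 and 333 CPM with CshRNA. FADS1 had 200.36, 199.995 and 200.48 CPM with MUC1shRNA in BT-549, against 221, 226 and 229 CPM with CshRNA. The FADS1 values in SUM149 were 240.5, 237 and 234 CPM with MUC1shRNA, against 414, 409.7 and 385 CPM with CshRNA. Both genes fell in SUM149, FADS1 by 0.77 (SE 0.06, edgeR adjusted p = 2.65e-07) and FADS2 by 0.80 (SE 0.12, edgeR adjusted p = 1.17e-04). In BT-549 FADS2 rose by 0.31 (SE 0.05, edgeR adjusted p = 0.00106) while FADS1 fell by 0.17 (SE 0.05, edgeR adjusted p = 0.0197). The ratio of FADS2 to FADS1 CPM was 2.49 ± 0.0519 with MUC1shRNA and 1.79 ± 0.0365 with CshRNA in BT-549, and 0.639 ± 0.0319 with MUC1shRNA and 0.657 ± 0.180 with CshRNA in SUM149 (SD, n = 3 each). The FADS1 call of BT-549 ended without MUC1shRNA 1 (adjusted p = 0.0876) or MUC1shRNA 3 (0.0770). ELOVL6, which elongates palmitate, rose in SUM149 by 0.34 (SE 0.09, edgeR adjusted p = 0.00626), and its BT-549 change of -0.22 (SE 0.08, edgeR adjusted p = 0.0532) passed without CshRNA 3 (0.0151).

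**Figure D2:**
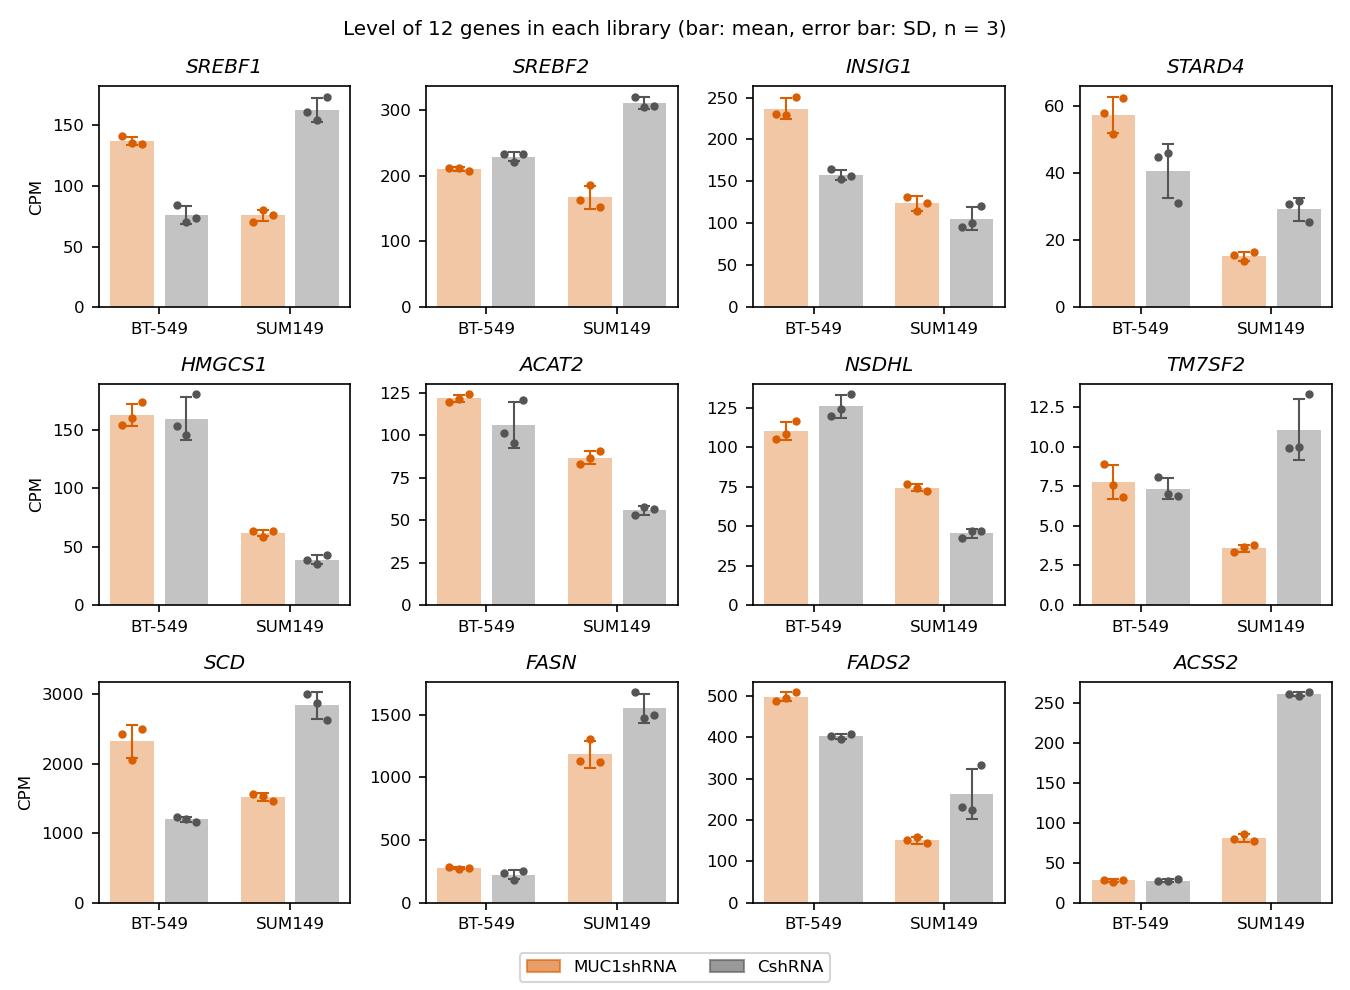
Level in CPM (vertical axes, from 0) of 12 of the genes in each library of the 4 groups, with MUC1shRNA in orange and CshRNA in grey. Each point is 1 library, each bar a mean with its SD, and SCD averages 2323 CPM with MUC1shRNA and 1199 CPM with CshRNA in BT-549, and 1521 CPM with MUC1shRNA and 2839 CPM with CshRNA in SUM149.

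The summed level of the 8 fatty acid enzymes was 3968, 3536 and 4070 CPM with MUC1shRNA in BT-549, against 2649, 2534 and 2605 CPM with CshRNA. In SUM149 it was 3668, 3804 and 3531 CPM with MUC1shRNA, against 5988, 5601 and 5544 CPM with CshRNA. Within each line the arms did not overlap. These sums lean on SCD and FASN, and without both the sum averaged 1256 ± 36.6 CPM with MUC1shRNA and 1171 ± 23.1 CPM with CshRNA in BT-549, and 963 ± 13.6 CPM with MUC1shRNA and 1323 ± 83.1 CPM with CshRNA in SUM149 (SD, n = 3 each). The 11 sterol enzymes summed to 1527, 1525 and 1680.2 CPM with MUC1shRNA and 1579, 1604 and 1707 CPM with CshRNA in BT-549. In SUM149 they summed to 918, 944 and 949.7 CPM with MUC1shRNA and 871, 892 and 937 CPM with CshRNA. The sterol sums overlapped in both lines. The ratio of fatty acid to mevalonate and sterol enzymes within a library was 1.71 ± 0.102 with MUC1shRNA and 1.16 ± 0.0615 with CshRNA in BT-549. In SUM149 it was 2.81 ± 0.123 with MUC1shRNA and 4.79 ± 0.368 with CshRNA (SD, n = 3 each). The ratio was thus higher in every silenced BT-549 library and lower in every silenced SUM149 library than in the controls of the line. It leans on SCD as the sums do. In BT-549 SCD made up 60.1% of the fatty acid sum with MUC1shRNA and 46.2% with CshRNA. In SUM149 its share was 41.5% with MUC1shRNA and 49.7% with CshRNA. The ratio was not computed without SCD and FASN, so it does not describe the other fatty acid enzymes.

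**Figure D3:**
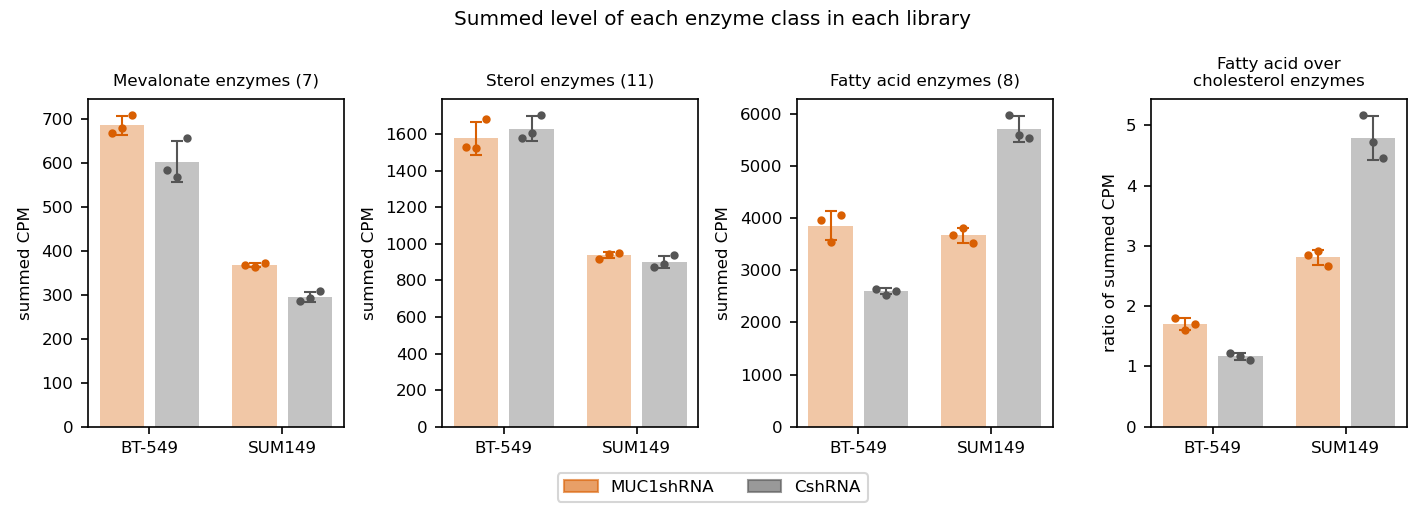
Summed CPM of the 7 mevalonate, 11 sterol and 8 fatty acid enzymes and the ratio of fatty acid to mevalonate and sterol enzymes (vertical axes, from 0) in each library, with MUC1shRNA in orange and CshRNA in grey. Each point is 1 library, each bar a mean with its SD, and the ratio averages 1.71 with MUC1shRNA and 1.16 with CshRNA in BT-549, and 2.81 with MUC1shRNA and 4.79 with CshRNA in SUM149.

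Responses of 17 of the 31 genes differed between the lines in edgeR's test of the interaction over all 12 libraries, 11 with the BT-549 response above the SUM149 response (19.5% of all genes) and 6 below (20.1%). That is 54.8% of the members, against 39.6% of 15649 tested genes. The largest differences, BT-549 minus SUM149, were those of SREBF1 (1.97, SE 0.11, edgeR adjusted p = 6.42e-09), SCD (1.87, SE 0.10, edgeR adjusted p = 5.30e-09), TM7SF2 (1.72, SE 0.23, edgeR adjusted p = 3.14e-05) and ACSS2 (1.70, SE 0.10, edgeR adjusted p = 7.61e-09). NSDHL had the largest difference in the other direction at -0.89 (SE 0.09, edgeR adjusted p = 3.25e-06), followed by HMGCS1 at -0.62 (SE 0.13, edgeR adjusted p = 0.00118). SREBF1, STARD4, FDPS, FASN, SCD and FADS2 rose in BT-549 and fell in SUM149, which is 19.4% of the members, against 4.79% of the 12125 genes tested in both lines. Of these 6, the BT-549 rises of STARD4, FDPS and FASN did not pass without BT-549 MUC1shRNA 1 (adjusted p = 0.0572, 0.103 and 0.126) or without BT-549 MUC1shRNA 3 (0.0676, 0.137 and 0.0994), which leaves SREBF1, SCD and FADS2. The share of all genes was not recomputed without these libraries. NSDHL was the only member that fell in BT-549 and rose in SUM149 (3.23%, against 5.14% of all genes), and its BT-549 call also ended without BT-549 MUC1shRNA 1 (adjusted p = 0.163). INSIG1, IDI1 and MSMO1 rose in both lines (5.97% of all genes did), and FADS1 fell in both (5.11% of all genes). The INSIG1 difference of 0.37 (SE 0.12, edgeR adjusted p = 0.0205) did not pass without BT-549 MUC1shRNA 3 (adjusted p = 0.0640), BT-549 CshRNA 2 (0.0561) or SUM149 MUC1shRNA 2 (0.0573).

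For 14 genes the difference did not pass, which does not show equal responses. The SE of the difference was 0.09 for IDI1 and DHCR7, 0.11 for SCAP and 0.29 for CYP51A1. PMVK had a difference of 0.45 (SE 0.19, edgeR adjusted p = 0.0767), and passed without SUM149 CshRNA 1 (adjusted p = 0.0252) or SUM149 MUC1shRNA 2 (0.0310). SC5D was at -0.33 (SE 0.25, edgeR adjusted p = 0.331) and passed without SUM149 CshRNA 3 (0.0132). FDFT1 was at 0.21 (SE 0.11, edgeR adjusted p = 0.143) and passed without BT-549 CshRNA 3 (0.0347).

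**Figure D4:**
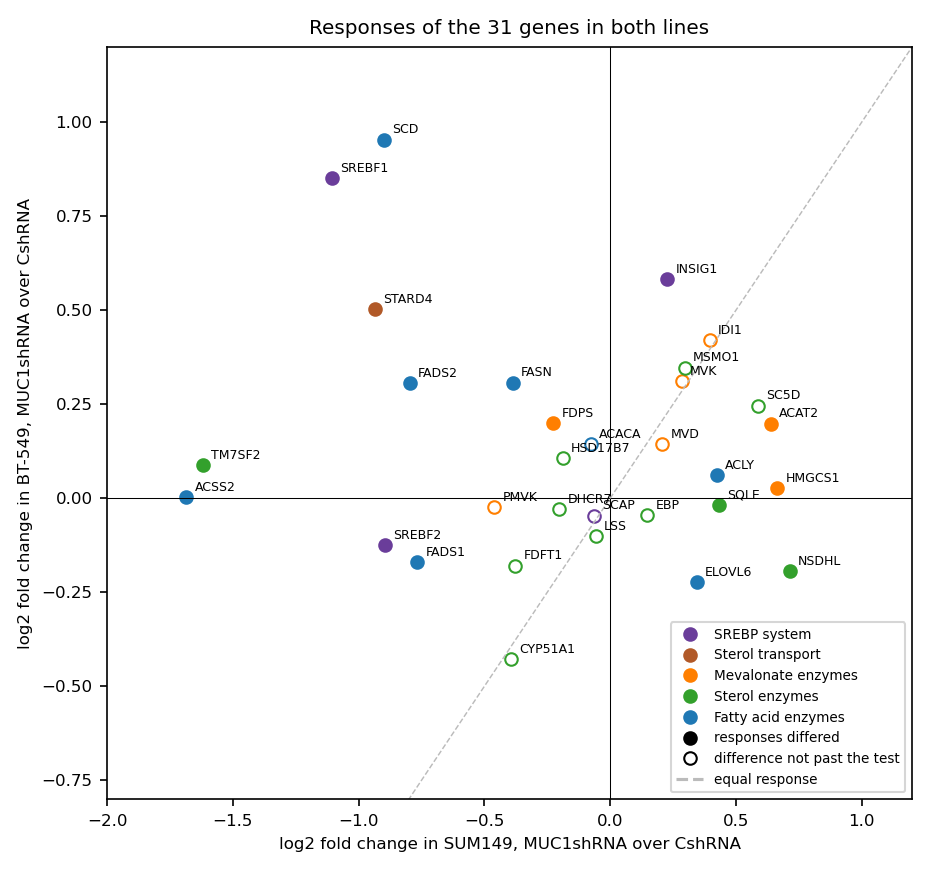
Log2 fold change of MUC1shRNA over CshRNA in BT-549 (vertical axis) against that in SUM149 (horizontal axis) for the 31 genes, coloured by class, with filled points where the responses differed in the interaction test and a dashed line of equal response. SREBF1, SCD, STARD4, FADS2, FASN and FDPS lie in the upper left, and IDI1 and MSMO1 lie near the dashed line.

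Levels of different genes were compared per kilobase of exon. SCD had the highest level of the 31 genes in all 4 groups, at 433 ± 44.8 CPM per kilobase with MUC1shRNA and 224 ± 6.15 with CshRNA in BT-549, and 284 ± 9.76 with MUC1shRNA and 529 ± 35.6 with CshRNA in SUM149 (SD, n = 3 each). In control BT-549 cells SQLE (103 ± 2.58 CPM per kilobase) and FDFT1 (92.7 ± 8.99) followed. Control SUM149 cells had FASN in that place at 165 ± 12.1 CPM per kilobase, followed by EBP (54.2 ± 1.361), DHCR7 (49.3 ± 1.33) and ACSS2 (48.6 ± 0.402). DHCR7 and ACSS2 lay within their spread of each other. In silenced SUM149 cells ACSS2 was at 15.1 ± 0.881 CPM per kilobase and ACLY at 63.5 ± 1.23, while in silenced BT-549 cells ACSS2 was at 5.20 ± 0.316 and ACLY at 79.8 ± 3.53 CPM per kilobase.

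**Figure D5:**
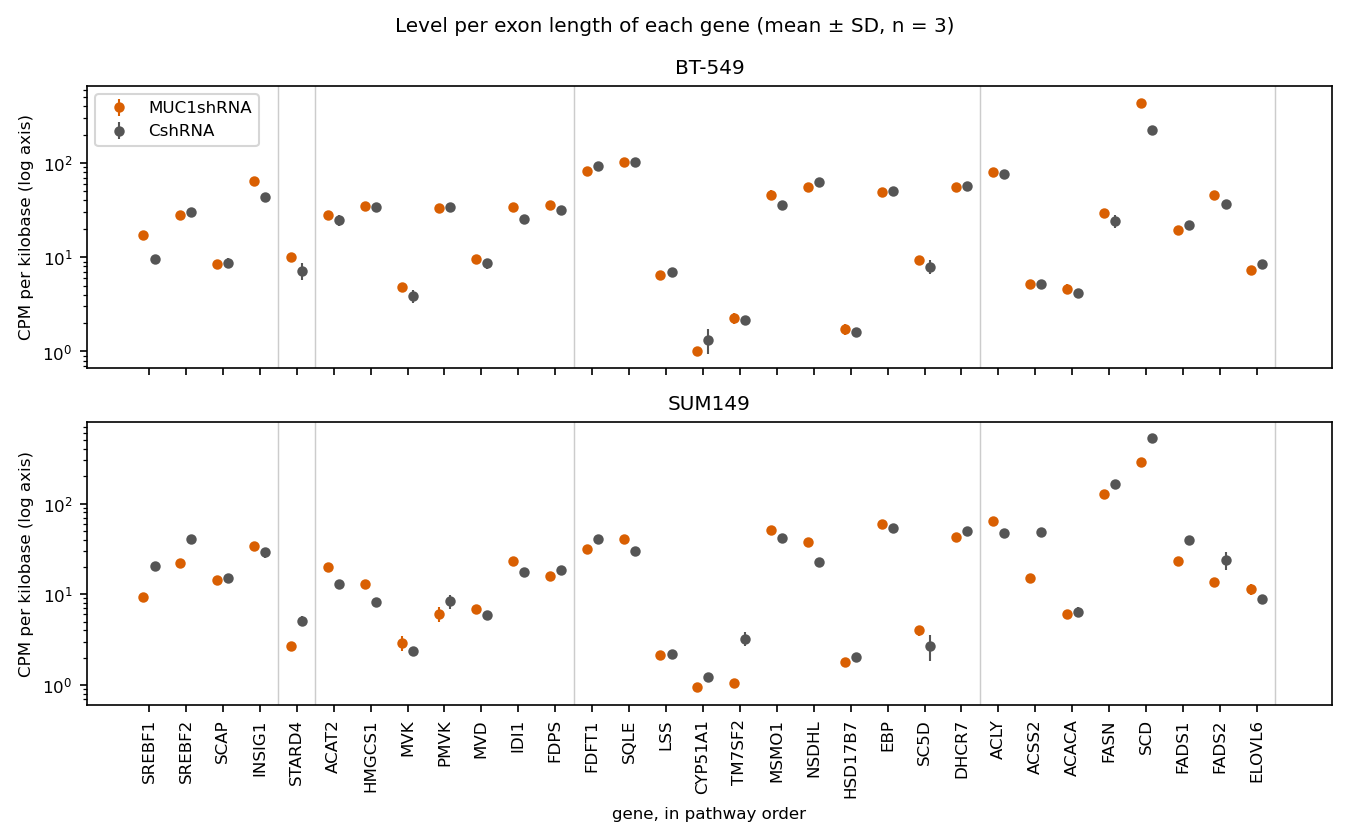
Level in CPM per kilobase of exon (vertical axes, log scale) of the 31 genes in pathway order (horizontal axis) in BT-549 (top) and SUM149 (bottom), as mean and SD of 3 libraries, with MUC1shRNA in orange and CshRNA in grey. SCD is the highest point of every group, and ACSS2 lies at 15.1 with MUC1shRNA and 48.6 with CshRNA in SUM149.

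Genes next to the 2 pathways were counted in 4 further lists. Of 14 other factors of SREBP processing, 1 rose and 4 fell in BT-549, and 4 rose and 3 fell in SUM149, with medians of -0.04 and 0.02. ERLIN1, a lipid raft protein of the endoplasmic reticulum, fell in BT-549 by 0.24 (SE 0.05). It rose in SUM149 by 0.16 (SE 0.06, edgeR adjusted p = 0.0465). In SUM149 ERLIN2, the partner of ERLIN1, fell by 0.73 (SE 0.07) and SPRING1, which is needed for SCAP function, rose by 0.74 (SE 0.08). ERLIN2 also fell in BT-549, by 0.18 (SE 0.06, edgeR adjusted p = 0.0444), and SPRING1 did not pass there (0.05, SE 0.06). Of 14 genes of sterol storage, release and export, 4 rose and 1 fell in BT-549, and 5 rose and 3 fell in SUM149, with medians of 0.03 and 0.09. NPC2, the lysosomal cholesterol carrier, and NR1H2, a liver X receptor, rose in BT-549 by 0.38 (SE 0.05) and 0.53 (SE 0.09). NPC2 fell in SUM149 by 0.20 (SE 0.07, edgeR adjusted p = 0.0204), and NR1H2 did not pass there (-0.05, SE 0.09). In SUM149 NCEH1, a hydrolase of cholesterol esters, rose to 108 CPM, against 17.9 CPM in CshRNA cells (2.59, SE 0.11), and ABCA1, the exporter of cholesterol to apolipoprotein A-I, rose to 15.6 CPM, against 2.60 CPM in CshRNA cells (2.58, SE 0.16). NCEH1 did not pass in BT-549 (0.005, SE 0.17). ABCA1 rose in BT-549 at low levels, to 1.11 CPM, against 0.367 CPM in CshRNA cells (1.52, SE 0.50, edgeR adjusted p = 0.0427). ABCG1, another sterol exporter of this list, named after its values were seen, fell in SUM149 to 6.36 CPM, against 22.3 CPM in CshRNA cells (by 1.81 on the log2 scale, SE 0.13, edgeR adjusted p = 7.61e-08).

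Of 11 genes of the non-sterol isoprenoid branch, which leads to prenylated proteins, ubiquinone and dolichol, 5 rose and 2 fell in BT-549, and 3 rose and 1 fell in SUM149, with medians of 0.11 and 0.12. GGPS1, the synthase of geranylgeranyl pyrophosphate, and DHDDS, a subunit of the dolichol synthase, rose in BT-549 by 0.46 (SE 0.06) and 0.37 (SE 0.07). DHDDS also rose in SUM149, by 0.52 (SE 0.08, edgeR adjusted p = 9.84e-05), and GGPS1 did not pass there (-0.06, SE 0.07). NUS1, the other subunit of the dolichol synthase, and ICMT, which methylates prenylated proteins, rose in SUM149 by 0.71 (SE 0.08) and 0.54 (SE 0.06). NUS1 also rose in BT-549, by 0.23 (SE 0.08, edgeR adjusted p = 0.0403), and ICMT did not pass there (-0.10, SE 0.05). Of 22 genes of fatty acid activation, elongation and lipid assembly, 5 rose and 2 fell in BT-549, and 6 rose and 10 fell in SUM149, with medians of -0.04 and -0.12. AGPAT2, an acyltransferase of phosphatidic acid synthesis, fell in BT-549 by 0.94 (SE 0.08) and ELOVL5, an elongase of polyunsaturated chains, rose there by 0.59 (SE 0.08). AGPAT2 rose in SUM149 by 0.31 (SE 0.10, edgeR adjusted p = 0.0126), and ELOVL5 did not pass there (-0.03, SE 0.07). ACSL1, a long-chain acyl-CoA synthetase, fell in SUM149 by 0.97 (SE 0.07), and GPAM, which starts glycerolipid synthesis, rose by 0.84 (SE 0.07). Neither passed in BT-549, at -0.16 (SE 0.06) for ACSL1 and -0.04 (SE 0.07) for GPAM. For the genes named from these lists, edgeR adjusted p in the line given first for each ran from 1.17e-09 for NCEH1 in SUM149 to 0.00541 for ERLIN1 in BT-549. Over all tested genes 33.3% changed in BT-549 and 56.5% in SUM149.

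Markers of other cell types were low, apart from ROBO4 in both lines and PECAM1 and LPL in SUM149. The 8 leukocyte markers summed to 2.80 to 4.73 CPM with MUC1shRNA and 4.59 to 6.09 CPM with CshRNA in BT-549, and to 6.94 to 8.59 CPM with MUC1shRNA and 9.45 to 10.8 CPM with CshRNA in SUM149. Of them CD3E was at 0 in all 12 libraries, 2 fell in BT-549 and 1 fell in SUM149. Their part in the results was not tested. The 6 endothelial markers summed to 15.3 to 18.2 CPM with MUC1shRNA and 7.83 to 7.99 CPM with CshRNA in BT-549, where ROBO4 rose (14.99 ± 1.68 CPM with MUC1shRNA and 6.601 ± 0.282 CPM with CshRNA, SD, n = 3 each), and to 21.5 to 23.9 CPM with MUC1shRNA and 39.8 to 44.4 CPM with CshRNA in SUM149, where PECAM1 fell. CDH5, which defines endothelium, averaged at most 0.0777 CPM in any group. The 6 adipocyte markers summed to 22.1 to 24.9 CPM with MUC1shRNA and 41.1 to 42.7 CPM with CshRNA in SUM149, nearly all of it LPL, lipoprotein lipase, which fell by 0.84 (SE 0.08, edgeR adjusted p = 2.01e-06). In BT-549 they summed to 0.0474 to 0.123 CPM with MUC1shRNA and 0 to 0.0484 CPM with CshRNA, and the adipocyte genes ADIPOQ and LEP were at 0 in every library of both lines. Fewer cells of a type and less RNA per cell cannot be told apart in libraries made from whole cultures.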

How the data were processed

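Per the labels' protocols, Trizol was used for RNA, and the library kit was TruSeq Stranded mRNA. STAR 2.7.0, CASAVA 1.8.2, GRCh38.p7 and DESeq2 1.24.0 are listed, per the submitters' processing notes. For the counting tool and its strand setting, nothing is given in the sources used here. The authors deposited raw read counts per gene identifier for 12 libraries, which were used as deposited after 45 pseudoautosomal duplicates were left out. Names, coordinates and exon lengths came from GENCODE 29.

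The 2 lines were fitted separately in R 4.3.3 with edgeR 4.0.16 (TMM scaling, filterByExpr, quasi-likelihood test), with p-values adjusted by Benjamini-Hochberg over all tested genes and a threshold of 0.05. SE is the log2 fold change divided by the root of its F value. Differences between lines were tested as an interaction over all 12 libraries. Scripts were tested on simulated data. CPM used TMM-adjusted library sizes. Total counts ran from 7931614 to 24140623, so SUM149 MUC1shRNA values carry the largest counting error, and p-values cover the spread between libraries.

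The members and lists were chosen with earlier results of these data known. Library values are given for the SREBP system, STARD4, the 3 members of each enzyme class with the smallest adjusted p in either line and every member that changed in opposite directions. Alternatives were other scalings and filters, DESeq2 1.42.0, limma-voom (limma 3.58.1), a replicate block, a joint fit and left-out libraries. Promoter windows are from RefSeq, and none is given for ACAT2, FDFT1, SQLE and FASN.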

Additional observations from a re-analysis of the deposited data

Results flagged for a closer look

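The 17 genes whose responses differed between the lines in edgeR's interaction test are listed with the BT-549 minus the SUM149 log2 fold change. In the SREBP system and its transport partner the differences were 1.97 for SREBF1, 0.787 for SREBF2, 0.373 for INSIG1 and 1.45 for STARD4. Among mevalonate enzymes they were -0.424 for ACAT2, -0.620 for HMGCS1 and 0.443 for FDPS, and among sterol enzymes -0.434 for SQLE, 1.72 for TM7SF2 and -0.891 for NSDHL. Among fatty acid enzymes they were -0.346 for ACLY, 1.70 for ACSS2, 0.711 for FASN, 1.87 for SCD, 0.613 for FADS1, 1.12 for FADS2 and -0.551 for ELOVL6. Over all tested genes 39.6% differed in this test. Line, medium and serum cannot be told apart in these differences.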

How the results depend on the processing

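No member changed direction past the test under any alternative. Calls held under every alternative for IDI1, INSIG1, SCD and SREBF1 of the 12 in BT-549, for 18 of 23 in SUM149 and for 16 of 17 differences between lines, INSIG1 being the exception. With upper-quartile scaling the SUM149 medians were 0.23 for mevalonate and -0.12 for sterol enzymes, and the median of all genes -0.09, with 3411 genes higher and 4644 lower, against 3920 and 4097 with TMM. With the stricter filter the SUM149 median log2 fold change of Sterol enzymes was 0.02854, since CYP51A1 was not tested. DESeq2 called 1 member lower in BT-549, and 1857 of all genes. Leaving out 1 library gave 5 to 12 members higher and 0 to 2 lower in BT-549. It gave SUM149 medians of 0.15 to 0.38 for mevalonate and -0.137 to -0.0055 for sterol enzymes. FADS2 did not pass in BT-549 with all 12 libraries in one fit (adjusted p = 0.0506). With a replicate block, 6 members rose and 0 fell in BT-549, and 1505 and 1446 over all genes. After each arm was centred, same-numbered libraries correlated at 0.131, -0.315 and -0.257 in BT-549 and -0.0535, 0.0599 and 0.0999 in SUM149. Only SUM149 MUC1shRNA 3 matched the control of its own number best. Centring within so few libraries makes this check too weak to exclude pairing. The causes were not tested. The least deep libraries are those of SUM149 MUC1shRNA.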
